A study of Mus musculus with 8 samples.

Results

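The retinoic acid pathway was examined through 9 genes, *Aldh1a2*, *Aldh1a3*, *Dhrs3*, *Stra6*, *Crabp1*, *Crabp2*, *Rara*, *Rarb* and *Rarg*, in single whole embryos of the mouse at E8.5 (embryonic day 8.5). Every non-control array probe whose RefSeq accession belongs to 1 of these genes was taken, which gave 11 of the 55681 distinct probes on the array. *Rara* and *Rarb* had 2 probes each and the other 7 genes had 1, and all 11 were among the 29718 probes that were bright enough to be tested. The study asked whether low function of EED in fathers was followed by altered gene expression in their offspring, EED being needed for the activity of PRC2, a complex that methylates histones and keeps genes silent. Single embryos were measured on single-colour Agilent arrays, 4 with a father homozygous for the hypomorphic allele (*Eed* hypo/hypo, "HOM father") and 4 with a heterozygous father (*Eed* hypo/wt, "HET father"), with 2 females and 2 males in each group. All 8 embryos were themselves *Eed* hypo/wt, all mothers were wild type, the line carried the Eedl7Rn5-1989SB allele on a C57bl6/129 background, and the embryos had been matched by stage. The labels name no agent given to either group.

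Retinoic acid is made from vitamin A and patterns the hindbrain, somites, heart and body axis of the early embryo. Retinol enters the cell, is oxidised reversibly to retinaldehyde, and is then oxidised irreversibly to retinoic acid by aldehyde dehydrogenases, while CYP26 enzymes break retinoic acid down. Retinoic acid acts through nuclear receptors (RAR), which pair with retinoid X receptors (RXR) on DNA at direct repeats of a short motif, and *Rarb* and *Cyp26a1* are textbook genes that it induces through such an element.

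The element in the *Rarb* promoter was read from the sequences in the RefSeq promoter table (mouse assembly GRCm38.p6) to show what the receptors measured here recognise. The motif searched, known as a DR5 element, was a direct repeat of a 6-base receptor half-site with 5 bases between the copies (half-site AGGTCA or AGTTCA, where the first base may also be G), on both strands, in the 300 bases from 250 before to 50 after each start. Of 32851 promoters, 32 (0.0974%) held such a match. Of 16 promoters listed for 7 of the 9 genes, 1 held it, that of *Rarb*, and none was listed for *Aldh1a3* or *Crabp2*. Among the genes that degrade retinoic acid, the *Cyp26a1* promoter held a match on the opposite strand. Both are given 5′ to 3′ on the gene's strand as the 250 bases before the start, with the DR5 match in capitals. The *Rarb* sequence lies at chr14:16575477-16575726 on the minus strand and its match begins 53 bases before the start, and the *Cyp26a1* sequence lies at chr19:37697558-37697807 on the plus strand with its match from 32 bases before the start. A match is a description of the letters and not a measured binding site.
Rarb: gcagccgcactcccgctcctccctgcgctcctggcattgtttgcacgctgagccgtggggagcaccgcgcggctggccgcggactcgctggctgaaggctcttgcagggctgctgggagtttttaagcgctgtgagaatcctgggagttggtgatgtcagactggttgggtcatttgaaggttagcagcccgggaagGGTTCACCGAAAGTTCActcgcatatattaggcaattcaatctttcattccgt
Cyp26a1: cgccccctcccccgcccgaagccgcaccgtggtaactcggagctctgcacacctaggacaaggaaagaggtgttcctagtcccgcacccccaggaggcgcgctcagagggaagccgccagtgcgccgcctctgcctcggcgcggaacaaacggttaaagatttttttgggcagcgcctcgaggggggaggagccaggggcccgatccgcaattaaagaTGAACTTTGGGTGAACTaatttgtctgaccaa

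Signals are given as the log2 of the processed intensity minus the 75th percentile of the array, so that 0 is that percentile and a step of 1 is 2-fold. Between 51.9% and 60.8% of spots on an array were well above background, and 10 of the 11 probes were so on all 8 arrays. The exception was *Aldh1a3*, on 3 of 4 HOM father arrays and 4 of 4 HET father arrays. The precision was limited by 4 embryos per group. The labels do not name sires and, by the study's account, some embryos shared a father, so the p-values measure only the spread between these embryos. Each father group lay on a slide of its own, so slide and father cannot be told apart. Before scaling, the median spot intensity was 91.0 to 103 on HOM father arrays and 70.5 to 81.2 on HET father arrays. The 75th percentiles ran from 1359 to 1633 and from 1334 to 1447. The part of this gap at low signal in the differences below was not tested. In whole-embryo RNA, fewer cells of a type and less RNA per cell cannot be told apart.

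HOM father replicate 2, a female, stood apart from the other HOM father arrays in the 11 probes. It had either the lowest (6 probes) or the highest (5 probes) signal of its group in all 11 probes, compared with 63.1% of all tested probes (43.0% to 51.8% for the other 7 arrays) and with 1 to 6 of the 11 probes for each of the other 7 arrays. Over 101 genes of the further lists below it was at an end of its group in 67, a share near that over all tested probes. The other 7 arrays were so in 36 to 60. Among genes picked out after their values were seen, it read 3.94 for *Cdx1*, a homeobox gene of the posterior embryo that responds to retinoic acid, where the other HOM father arrays lay between 2.69 and 2.94. For *Nr2f1*, an orphan nuclear receptor gene that also responds, it read 2.97 against 3.67 to 4.06. For *Cyp26b1*, which encodes a retinoic acid hydroxylase, it read -0.36 against 0.55 to 0.77. Values without this array are given beside results that moved with it, a step that for the gene lists beyond the 9 genes was chosen after the data were seen.

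**Figure D1:**
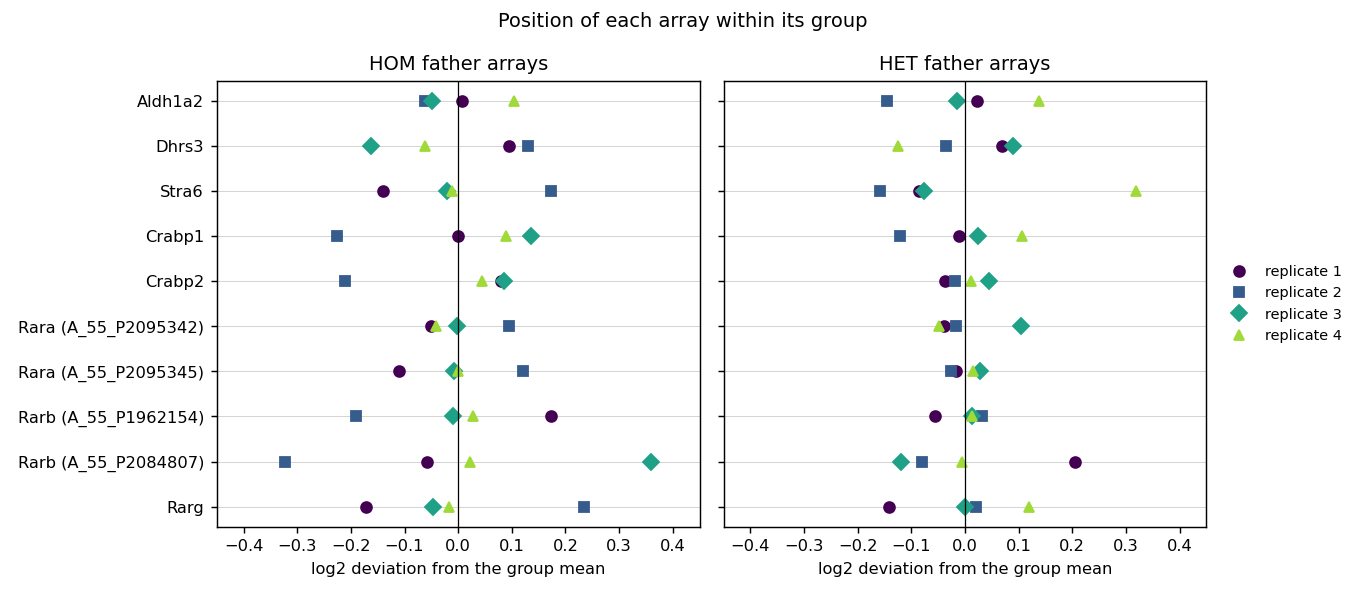
Log2 deviation of each array from the mean of its own father group (horizontal axis) for 10 of the 11 probes, with HOM father arrays on the left and HET father arrays on the right, and 1 symbol per replicate. *Aldh1a3*, whose deviations reached 2.22, is left out to keep the scale, and the squares of HOM father replicate 2 lie at an end of the range in each of the 10 probes shown.

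Across the pathway, differences between father groups were small. Only 1 of 11 probes, that of *Rarg*, passed an adjusted p below 0.05 (limma, n = 4 per group), and it was lower in embryos of HOM fathers. By the same limit 21% of all tested probes were called, 12.3% higher and 8.69% lower in HOM father embryos. By the stricter limits of the study (2-fold or more, with adjusted p below 0.01) limma called 0 of 11 probes, compared with 1.27% of all tested probes. An unadjusted p below 0.05 was reached by 4 of 11, compared with 34.8% of all tested probes. The estimate was below 0 for 10 of 11 probes, compared with 54.2% of all tested probes, and the median log2 change was -0.11, compared with -0.02. By 1 probe per gene, the brightest, 8 of 9 genes were below 0, compared with 61.4% of all 14592 genes tested. The medians by gene were -0.11 and -0.05. These shares and medians over all probes or genes were not matched for brightness. Of the 11 probes, all but those of *Aldh1a3* and *Rarb* (A_55_P2084807) were brighter than at least 58.8% of all tested probes. For 10 probes the 95% interval lay within -0.55 and 0.32, inside a 2-fold change in either direction. With each array scaled to its median in place of the 75th percentile, 6 of 11 were called, all lower, while the median of all tested probes moved to -0.21. The interval of *Aldh1a3* was wider than 2-fold on both sides.

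**Figure D2:**
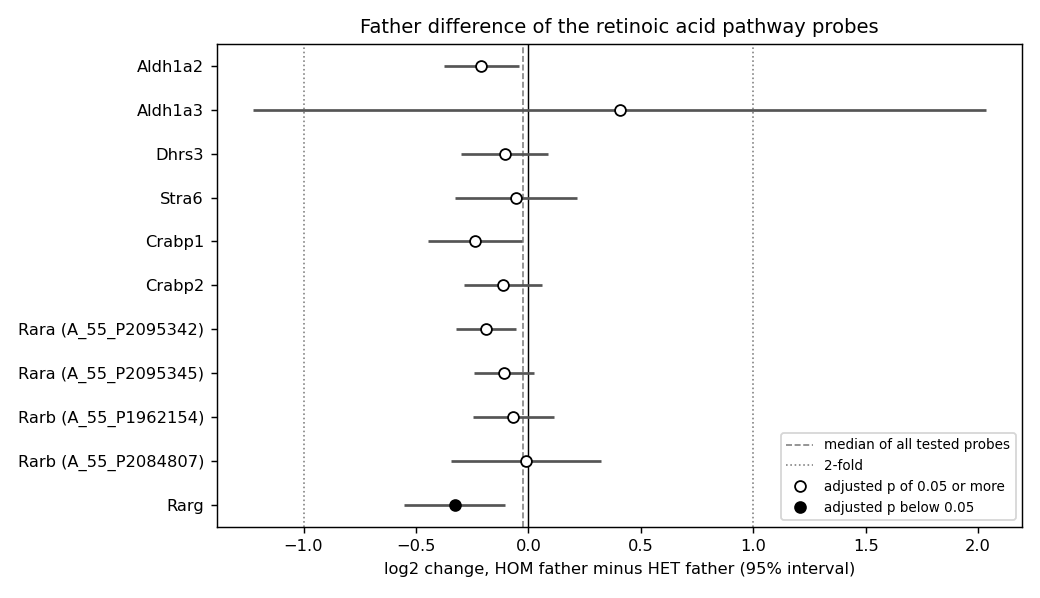
Log2 change of each probe in HOM father minus HET father embryos (horizontal axis, n = 4 per group) with its 95% interval from limma. Points are estimates, filled where the adjusted p is below 0.05. The dashed line marks the median of all tested probes at -0.02, and most points lie a little to its left, with *Rarg* at -0.33 the only filled point.

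Of the genes examined, *Aldh1a2* and *Aldh1a3* encode enzymes that make retinoic acid. *Aldh1a2* (probe A_52_P58145) encodes the main retinaldehyde dehydrogenase of the trunk mesoderm at this age. Its signal was 3.52, 3.45, 3.46 and 3.61 in HOM father replicates 1 to 4 and 3.74, 3.57, 3.70 and 3.86 in HET father replicates 1 to 4. The groups overlapped in a single pair, HOM father replicate 4 lying just above HET father replicate 2. The log2 change was -0.21 (95% interval -0.37 to -0.04), and it did not pass adjustment (limma, adjusted p = 0.0775). On leaving out each embryo it ranged from -0.26 to -0.16 and passed only without HET father replicate 2 (adjusted p = 0.0457, against 0.0791 to 0.162 for the other 7).

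*Aldh1a3* (A_52_P87843) encodes a retinaldehyde dehydrogenase of the developing eye and nasal region. The probe read -1.65, -4.81, -1.68 and -2.22 in HOM father replicates 1 to 4 and -2.46, -3.69, -3.08 and -2.75 in HET father replicates 1 to 4. All HOM father arrays but replicate 2 lay above all HET father arrays, and replicate 2, where the probe was not well above background, lay below them. The log2 change was 0.41 (-1.22 to 2.03; limma, adjusted p = 0.724), with a pooled SD of 1.13, compared with a median of 0.12 over the 11 probes and 0.13 over all tested probes. Without HOM father replicate 2 it was 1.15 (limma, adjusted p = 0.0408), so this array decided the call.

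*Dhrs3* (A_55_P2020128) encodes a reductase that returns retinaldehyde to retinol and is itself induced by retinoic acid. Its signal was 2.40, 2.44, 2.14 and 2.24 with HOM fathers and 2.48, 2.38, 2.50 and 2.29 with HET fathers, in replicate order. The father groups overlapped widely, with a log2 change of -0.10 (-0.30 to 0.09; limma, adjusted p = 0.416).

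*Stra6* (A_55_P1973451) encodes the membrane receptor through which retinol bound to its plasma carrier enters cells. It read 0.21, 0.53, 0.33 and 0.34 with HOM fathers and 0.32, 0.25, 0.33 and 0.73 with HET fathers. HET father replicate 4 was the highest and the other arrays were mixed, with a log2 change of -0.06 (-0.33 to 0.22; limma, adjusted p = 0.776) that was -0.11 without HOM father replicate 2 and 0.051 without HET father replicate 4.

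The binding proteins carry retinoic acid in the cytoplasm. *Crabp1* (A_52_P185907) encodes a binding protein of neural crest and hindbrain. It read 3.42, 3.19, 3.55 and 3.51 with HOM fathers and 3.64, 3.53, 3.68 and 3.76 with HET fathers. HOM father replicate 3 alone lay above the lowest HET father array. The log2 change was -0.24 (-0.44 to -0.03; limma, adjusted p = 0.105), and without HOM father replicate 2 it was -0.16 (adjusted p = 0.146).

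*Crabp2* (A_55_P2059432) encodes the protein that hands retinoic acid to its receptors. It read 6.46, 6.17, 6.47 and 6.43 with HOM fathers and 6.46, 6.48, 6.54 and 6.51 with HET fathers. HOM father replicate 2 lay well below the other arrays, which otherwise ran close together. The log2 change of -0.11 (-0.29 to 0.06; limma, adjusted p = 0.320) became -0.04 without that array.

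The 3 receptors were represented by 5 probes. *Rarg* (A_55_P2151056) encodes a receptor found mainly in the primitive streak, presomitic mesoderm and later cartilage. It read 3.25, 3.65, 3.37 and 3.40 with HOM fathers and 3.60, 3.77, 3.75 and 3.87 with HET fathers. HOM father replicate 2 reached into the HET father range, above its lowest array, and the other HOM father arrays lay below that range. The signal in HOM father embryos differed from that in HET father embryos by -20.4% (95% interval -31.8% to -7.02%), a log2 change of -0.33 that was just past the limit (limma, adjusted p = 0.0474). Without HOM father replicate 2 the change was -0.41 (adjusted p = 0.0142). The call was lost in 11 of 18 alternative analyses, with adjusted p between 0.00748 and 0.144 over all of them, among them those that left out HOM father replicate 1, 3 or 4 (0.105, 0.107 and 0.104) or HET father replicate 2, 3 or 4 (0.101, 0.0998 and 0.112).

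*Rara* encodes a widely expressed receptor, and both of its probes carry the same transcript accession. The probe A_55_P2095342 read 0.29, 0.43, 0.34 and 0.30 with HOM fathers and 0.49, 0.51, 0.63 and 0.48 with HET fathers. It was the only 1 of the 11 probes whose groups did not overlap, all HOM father arrays lying below all HET father arrays, as did 13% of all tested probes. None of the 11 had all HOM father arrays above, as 14.1% of all tested probes did. The log2 change was -0.19 (-0.32 to -0.06), with an adjusted p of 0.0514 by limma. Without HOM father replicate 2 it was -0.22 (adjusted p = 0.0340), while on leaving out any other embryo the adjusted p by limma was 0.0758 to 0.1235. With normexp background correction the log2 change was 0.044, so its direction depended on that choice. The second probe, A_55_P2095345, read 3.06, 3.29, 3.17 and 3.17 with HOM fathers and 3.27, 3.26, 3.31 and 3.30 with HET fathers. HOM father replicate 2 lay among the HET father arrays and the other HOM father arrays lay below them, with a log2 change of -0.11 (-0.24 to 0.02; limma, adjusted p = 0.222).

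*Rarb* encodes the receptor whose own promoter holds the DR5 element printed above. The probe A_55_P1962154 read 1.38, 1.02, 1.20 and 1.24 with HOM fathers and 1.22, 1.31, 1.29 and 1.29 with HET fathers. HOM father arrays lay on both sides of the HET father arrays, with a log2 change of -0.07 (-0.25 to 0.11; limma, adjusted p = 0.581) that became -0.0039 without HOM father replicate 2 and -0.12 without HOM father replicate 1. The second probe, A_55_P2084807, ranged from -2.03 to -1.35 with HOM fathers and from -1.82 to -1.49 with HET fathers, with a log2 change of -0.01 (-0.34 to 0.32; limma, adjusted p = 0.969) that turned to 0.098 without HOM father replicate 2. *Rarb*, the textbook induced gene among the 9, therefore showed no difference detectable with 4 embryos per group.

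**Figure D3:**
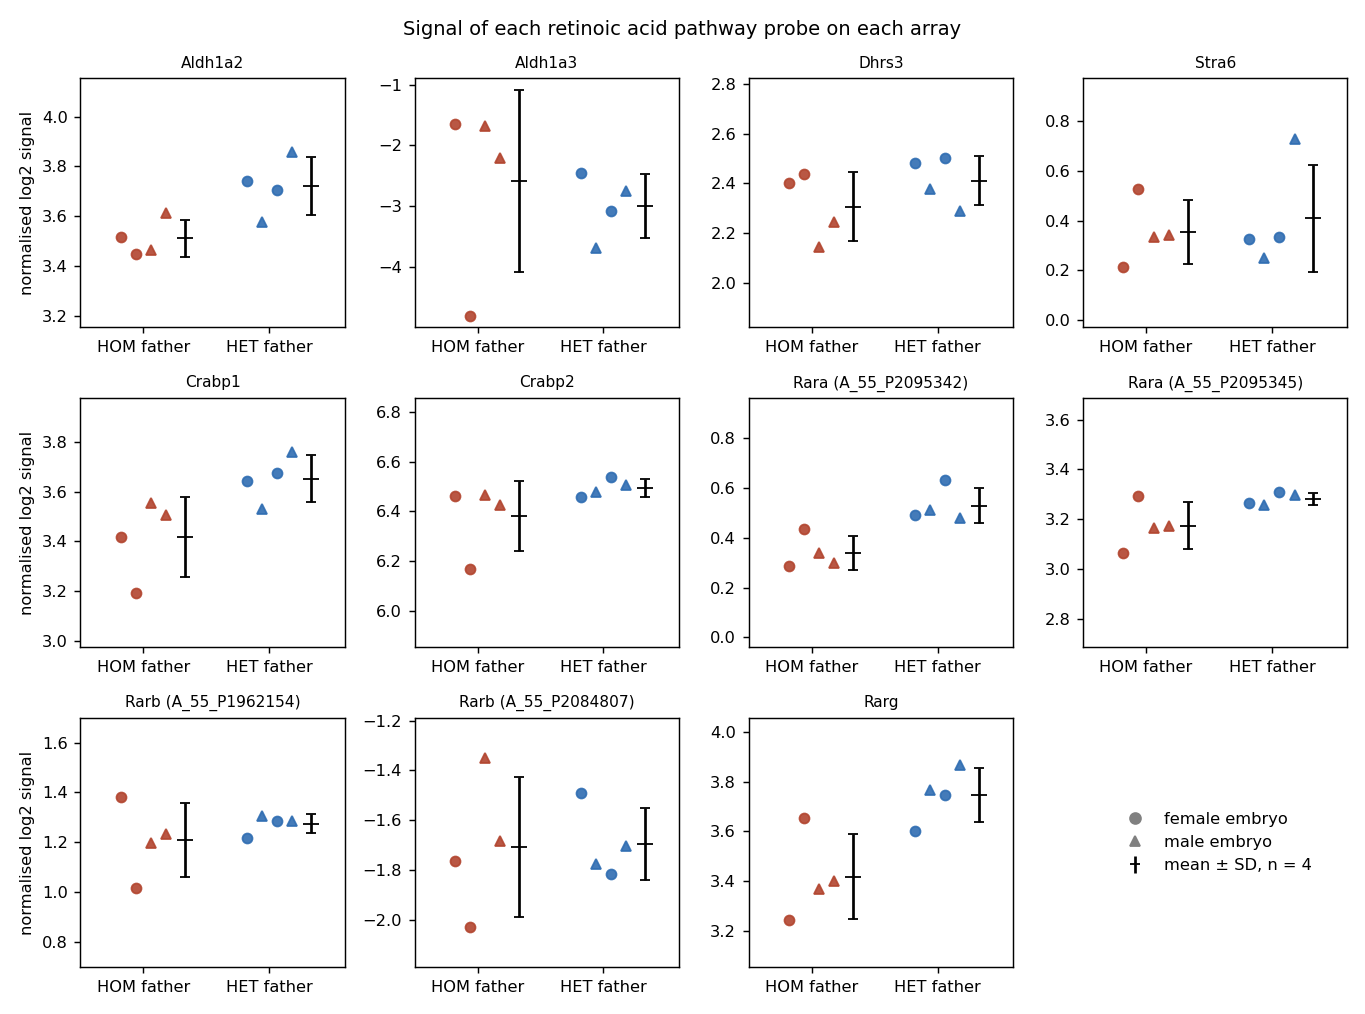
Normalised log2 signal (vertical axis, log2 of intensity minus the 75th percentile of the array) of the 11 probes on each of the 8 arrays, with circles for females, triangles for males and bars for the mean ± SD of 4 embryos. Every panel spans 1 log2 unit except *Aldh1a3*, and in the *Rara* panel of probe A_55_P2095342 all HOM father points lie below all HET father points.

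The father groups were also read within each sex, since each held 2 females and 2 males. Both HOM father males carried the same identifier number and the HOM father females carried others. Sex and that number therefore cannot be told apart among HOM father embryos. The estimate for HOM minus HET fathers was below 0 for 10 of 11 probes in females and for 9 in males. The largest gap between the sexes was in *Aldh1a3*, -0.46 in females and 1.27 in males, and HOM father replicate 2 is 1 of the 2 females concerned. No interaction of father and sex was called among the 11 probes (0 of 11 at adjusted p below 0.05 and 0 at unadjusted p below 0.05, limma), where 0.0639% of all tested probes were called.

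Between the sexes themselves, limma called 0 of 11 probes at adjusted p below 0.05, compared with 0.121% of all tested probes, and the log2 difference of females minus males ran from -0.42 to 0.19. *Dhrs3* alone reached an unadjusted p below 0.05. Its 4 female embryos, at 2.40 to 2.50, all lay above its 4 male embryos, at 2.14 to 2.38, as in 0.959% of all tested probes. The difference of 0.19 did not pass adjustment (limma, adjusted p = 0.742).

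A wider list of 42 retinoid genes (uptake and storage, retinol and retinaldehyde enzymes, degradation, and partners of the receptors) had 37 tested genes, each taken by its brightest tested probe. At adjusted p below 0.05 (limma), 2 were higher and 3 lower in HOM father embryos, with a median log2 change of -0.03. Of all 14592 genes tested in the same way, 7.02% were higher and 10.6% lower, with a median of -0.05. *Rbp2*, *Lrat*, *Dhrs9*, *Adh4* and *Adh7* were too dim to be tested.

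The largest change of the list was in *Rdh1*, which encodes a retinol dehydrogenase that can feed the first oxidation step. It read -2.45, -1.87, -2.08 and -2.18 with HOM fathers and -3.29, -3.59, -3.22 and -3.68 with HET fathers. All HOM father arrays lay above all HET father arrays, and the signal was 2.46-fold higher, a log2 change of 1.30 (0.95 to 1.65; limma, adjusted p = 0.00123). Its probe was dim, with a mean signal of -2.80, though well above background on all 8 arrays. *Rdh1* was the only gene of the list past the study's limits. Over all tested probes, calls by those limits fell from 376 to 145 with normexp background correction. *Rdh10*, which encodes the retinol dehydrogenase that the midgestation embryo depends on, differed by -0.01 (-0.16 to 0.14; limma, adjusted p = 0.963). Among the genes of entry and storage, *Rbp4* (plasma retinol carrier) differed by -0.02 (limma, adjusted p = 0.867). *Dgat1*, which encodes an acyltransferase that can esterify retinol, was lower by a log2 change of -0.20 (limma, adjusted p = 0.0276).

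The degrading enzymes are of interest because retinoic acid induces *Cyp26a1*. *Cyp26a1* read 1.37, 1.63, 1.43 and 1.36 with HOM fathers and 1.65, 1.66, 1.67 and 1.66 with HET fathers. All HOM father arrays lay below all HET father arrays, replicate 2 only narrowly, and the log2 change of -0.21 (-0.36 to -0.06) did not pass adjustment (limma, adjusted p = 0.0590). Without HOM father replicate 2 it was -0.27 and passed (adjusted p = 0.00915). *Cyp26b1* read 0.77, -0.36, 0.66 and 0.55 with HOM fathers and 0.36, 0.48, 0.49 and 0.41 with HET fathers. HOM father replicate 2 lay below all HET father arrays and the other HOM father arrays above them. The log2 change was -0.03 (-0.57 to 0.51; limma, adjusted p = 0.949), and without replicate 2 it turned to 0.23 (adjusted p = 0.0602). *Cyp26c1*, which encodes a further hydroxylase of the family, differed by -0.38 (-1.05 to 0.29; limma, adjusted p = 0.395). Its probe was dim, with a mean signal of -4.55, and was well above background on 3 of 4 arrays in each father group.

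Among the partners of the receptors, *Rxrb* was lower by a log2 change of -0.28 (limma, adjusted p = 0.00618). *Rxrg* was higher by 0.62 in its brighter probe (limma, adjusted p = 0.00214), while its second probe gave -0.18 (adjusted p = 0.522), so its probes disagreed. *Ncor1*, which encodes a corepressor that unliganded receptors recruit, was lower by -0.29 in its brightest probe (limma, adjusted p = 0.00875), and its other 2 probes gave -0.01 and 0.09. *Rxra* differed by 0.13 in its brighter probe (-0.01 to 0.27; limma, adjusted p = 0.174), and its second probe gave -0.04 (adjusted p = 0.821). Both *Rxra* probes were dim, with mean signals of -3.26 and -3.90.

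**Figure D4:**
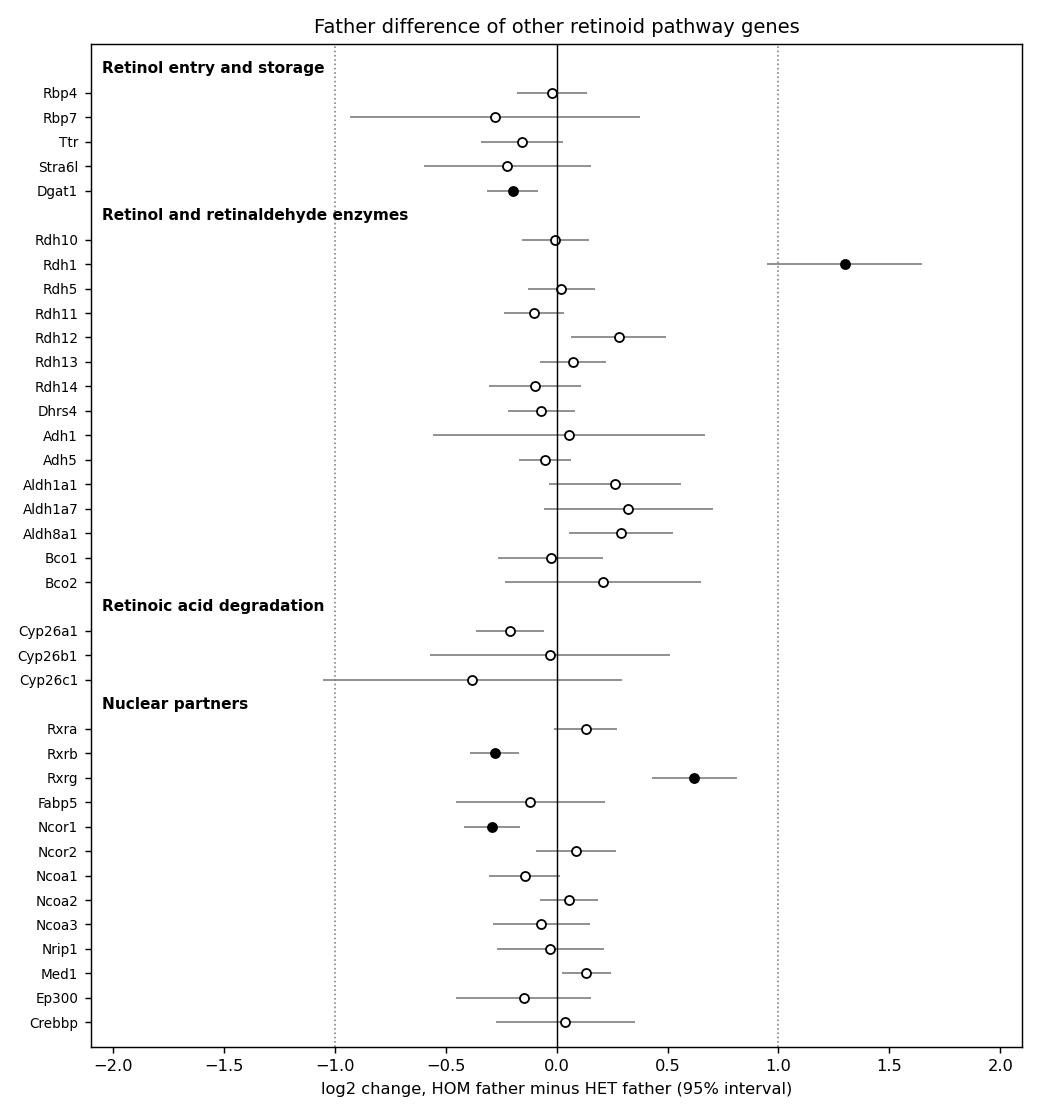
Log2 change in HOM father minus HET father embryos (horizontal axis, n = 4 per group) of tested genes of the wider list, each by its brightest probe, with 95% intervals from limma and in groups by role. Filled points have an adjusted p below 0.05 and dotted lines mark 2-fold, with *Rdh1* at 1.30 alone beyond them.

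Of 20 genes listed as targets of retinoic acid, all were tested, and 0 were higher and 1 lower at adjusted p below 0.05 (limma), the same as at unadjusted p below 0.05, with a median log2 change of -0.08. Over all genes tested 7.02% were higher and 10.6% lower, the median was -0.05, and 34.8% of all tested probes had an unadjusted p below 0.05. Without HOM father replicate 2 there were 2 lower, *Cdx1* having moved from -0.28 (limma, adjusted p = 0.476) to -0.56 (adjusted p = 0.00543), while *Nr2f1* moved from 0.11 to 0.34 (adjusted p = 0.0693).

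The markers of cell types in and around the embryo were read beside these values, to be set against the 7.02% of all genes tested that were higher, the 10.6% that were lower and the 34.8% of all tested probes with an unadjusted p below 0.05. Of 9 paraxial mesoderm and somite genes, where *Aldh1a2* is at its strongest and *Rarg* marks the posterior part, 1 was higher (*Uncx*, 0.63) and 2 were lower (*Tbx6*, -0.32, and *Msgn1*, -0.44) at adjusted p below 0.05 (limma). The *Uncx* and *Msgn1* probes were dim, with mean signals of -3.05 and -2.94. A second *Tbx6* probe gave -0.17 (limma, adjusted p = 0.120). The summed linear signal of the 9 genes, in units of the array's 75th percentile, ranged from 16.5 to 18.1 with HOM fathers and from 16.8 to 20.3 with HET fathers. *Tbx6* and *Msgn1* mark the presomitic mesoderm, and their part in the *Rarg* value was not tested. Among 7 heart genes *Myl7* was lower (-0.25), among 8 yolk sac endoderm genes *Apoa1* was lower (-0.41), and of 6 neural genes and 7 primitive erythroid genes 0 were called by limma (0 and 3 at unadjusted p below 0.05). These counts use the brightest probe of each gene. For the neural gene *Sox1* that probe gave -0.16, while its dimmer probe was higher by 0.42 (limma, adjusted p = 0.0209). Without HOM father replicate 2, *Myl7* no longer passed (-0.21; adjusted p = 0.0744), while the neural gene *Olig2* (0.76; 0.0211) and the erythroid gene *Klf1* (-0.87; 0.0435) did. Summed signals ranged from 125 to 164 and 153 to 157 for heart, from 461 to 576 and 525 to 558 for yolk sac, from 11.3 to 15.2 and 13.2 to 15.5 for neural, and from 621 to 801 and 799 to 832 for erythroid genes, HOM fathers first in each case.

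Some markers of extraembryonic and maternal tissue varied between embryos, and the markers of a tissue did not move together. Of 5 tested trophoblast genes *Gcm1* was lower by a log2 change of -1.07 (limma, adjusted p = 0.0217), while *Prl3d1* differed by 1.88 (adjusted p = 0.208) and *Ascl2* by 0.61 (adjusted p = 0.612). The remaining tested genes of that list differed by -0.30 and -0.18. The summed signal of the list ranged from 10.4 to 20.8 with HOM fathers and from 17.2 to 28.4 with HET fathers. Of 4 tested decidua genes limma called 0 (0 at unadjusted p below 0.05), and the sum ranged from 22.8 to 44.5 and from 16.1 to 24.3, with *Prl8a2* between -3.99 and 4.45 over the 8 arrays. *Prl8a2* differed by 2.97 (limma, adjusted p = 0.215), while the other tested decidua genes differed by only -0.06 to 0.09. The listed genes *Tpbpa* (trophoblast) and *Prl3c1* (decidua) were well above background on 0 arrays, unlike the tested genes of these lists. In HOM father replicate 2 the trophoblast gene *Ascl2* read 1.67, against -1.98 to -1.42 in the other HOM father arrays. The part of these tissues in the differences above was not tested.

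Outside the gene lists above, the genes whose signal ran most like that of *Aldh1a2* were *Capn11* (r = 0.974), *Runx3* (0.972), *Ccne2* (0.966), *Slc7a1* (0.962) and *Prss33* (0.960). The correlation was taken over the 8 arrays, once the mean of each father group had been subtracted. Genes of the lists were left out of the ranking, so it does not show whether they ran like *Aldh1a2*. The 5 named were the highest of the 14472 genes ranked, of which 28 had r above 0.9. *Runx3*, *Ccne2* and *Prss33* were dim, with mean signals of -4.43, -4.51 and -4.09. With 8 arrays that share a platform and scaling, the r values are a description only.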

How the data were processed

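RNA of 8 single E8.5 embryos was measured on 1 single-colour Agilent SurePrint G3 Mouse GE array each. Per the labels, 0.2 µg of total RNA was used. Each deposited scanner file gives spot intensities, which the authors obtained with Agilent Feature Extraction version 11.0.1.1 (background subtraction, spatial detrending), without normalisation between arrays. A series-wide table from the authors repeats these intensities in rounded form (they differed by at most 0.497%). The deposited spot flags (well above background, saturated, outlier) are values of 0 or 1. No spot was saturated.

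Outlier spots were left out, and from each log2 processed signal its array's 75th percentile was taken away. Spots of a probe were averaged. Tested probes had to exceed background clearly and reach the array's 20th percentile on at least 4 of 8 arrays (29718 of 55681). Gene names came from a RefSeq table (GRCm38.p6) by unversioned accession, for 27235 probes. Fits used lmFit and eBayes of limma 3.58.1 (R 4.3.3, two-sided) with Benjamini-Hochberg adjustment over all tested probes. Father was fitted without covariates, sex with father in the model, and their interaction in a fit with both. The scripts were tested on simulated data.

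All probes of the 9 genes are described. From the other lists, genes passing an adjusted p of 0.05 by father are named (up to 8 a list, by lowest p), plus *Rdh10*, *Rbp4*, the Cyp26 genes and the Rxr genes. The brightest tested probe stands for a gene in counts. Results for some listed genes are not reported here. Members and lists were chosen with earlier results of these data known. The files hold a median but no mean raw signal, so normexp (offset 50) used the median signal and median background. Alternatives were quantile and median scaling, normexp, other filters, trended and robust eBayes, sex as a covariate, blocks by replicate number or identifier, the authors' table, and leaving out each embryo.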

Additional observations from a re-analysis of the deposited data

Results flagged for a closer look

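Among 22 sets of 4 embryos examined for a value far from the others (11 probes by 2 father groups), 1 was found, where 1 in 20 by chance would give 1.1. It was *Crabp2* in HOM father replicate 2, at a normalised log2 signal of 6.17, compared with 6.43 to 6.47 in the other HOM father embryos. The gap was 0.862 of the range of the group, above Dixon's 95% limit for 4 values.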

How the results depend on the processing

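At adjusted p below 0.05 the number of the 11 probes called by father was 1 in the analysis reported, 1 with normexp and with the authors' table, 0 with quantile scaling, no filter, sex as a covariate or the identifier number as a random block, 2 of 10 with well above background required on all 8 arrays, 3 with trended and robust eBayes, 6 with median scaling, and 0 to 3 on leaving out 1 embryo. The 3 came without HOM father replicate 2 (*Aldh1a3* higher, *Rarg* and the *Rara* probe A_55_P2095342 lower), and without HET father replicate 2 the 1 call was *Aldh1a2*. Median scaling moved the median of all tested probes from -0.02 to -0.21. Relative to that median the change of *Rarg* was -0.31 under it. Between 9 and 10 probes were below 0 in each of the 18 alternatives. Reversed values were 0.044 for the *Rara* probe A_55_P2095342 with normexp, 0.051 for *Stra6* without HET father replicate 4 (-0.11 to 0.051 on leaving out each embryo), and for the *Rarb* probe A_55_P2084807 0.01 without HOM father replicate 1, 0.10 without HOM father replicate 2 and 0.06 without HET father replicate 1. By the study's limits 0 of 11 were called in every alternative, and at adjusted p below 0.05 limma called 0 for sex and 0 for the interaction in each alternative run. For sex these left out the sex covariate, and for the interaction the covariate, both blocks and leaving out embryos. In the other lists the calls without HOM father replicate 2, an alternative chosen after the data were seen, were 6 in place of 5 for the wider retinoid genes, 2 in place of 1 for the targets and 7 in place of 6 for the cell type markers. The causes were not tested.

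Over all tested probes, calls at adjusted p below 0.05 (6243, of which 3660 higher and 2583 lower) became 12689 with median scaling (2338 higher, 10351 lower), 3114 without a filter (2673 and 441), 3487 with the replicate block (2816 and 671) and 4157 to 6131 on leaving out 1 embryo. Calls by the study's limits (376) became 145 with normexp, 228 with the strict filter, 232 with the replicate block and 300 to 418 on leaving out 1 embryo. The replicate block called 0 of the 11 probes, with a lowest adjusted p of 0.0619. The numbers were not taken to pair embryos, since same-numbered embryos correlated at 0.19, -0.09, -0.13 and 0.15 and 2 of 4 correlated best with their own number.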
